A study of Mus musculus with 14 samples.

Results

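The genes described here are 28 mouse genes of sterol synthesis, sterol transport and the control of the SREBP transcription factors, out of 52636 genes in the deposited table. They were chosen from a list of gene symbols, all 28 of which matched an Ensembl identifier of the table. The rule uses no measured value, but the members were chosen with earlier results of these data known. RNA was sequenced from tMEF cells, a line of transformed mouse embryonic fibroblasts in which the mouse telomere-binding protein TRF1 had been exchanged for that of the naked mole rat (NMR). The 14 libraries form 7 groups of 2, lettered A and B. In normoxia (atmospheric oxygen) the cells carried wild-type NMR TRF1, the GLAD mutant (Glu69Lys, Val70Ala and Ala75Thr), the TIN mutant (Ala105Thr) or the double mutant with the GLAD and TIN changes together. The 3 mutants were also grown in hypoxia (1% oxygen), and wild-type cells in hypoxia were not analysed here. All groups share the exchange of TRF1 and a medium with 10% fetal calf serum, which itself supplies lipoprotein sterol. The labels do not say whether libraries A and B came from separate cultures, so the p-values rest on the spread within these pairs of libraries, and that spread may be technical. They also do not say how many lines carry each mutant protein, so that a mutation cannot be told apart from the cell line that bears it. The table's columns for the wild-type libraries carry the word Mouse in their names, whereas the sample titles give NMR TRF1; the titles were followed.

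Levels are the deposited CPM, in which each gene's reads are expressed relative to its library's total, rescaled here between libraries by the trimmed mean of M values (TMM). Low values are whole multiples of a fixed step, from which a depth of 11920000 to 15020000 reads per library was estimated, and 1 read is worth 0.0665 to 0.0839 CPM. Fibroblast markers were abundant, with 7 of 8 at 1 CPM or more in every library and a summed level of 7320 to 15300 CPM. That sum was 14800 to 15300 CPM in wild-type cells and 7320 to 9660 CPM in the mutants in normoxia. In hypoxia it was 7560 to 11800 CPM, and the part of this difference in the results was not tested. Epithelial markers summed to at most 3.35 CPM and hepatocyte markers to at most 1.1 CPM. Endothelial markers summed to 1.5 to 14.9 CPM and adipocyte markers to 12.4 to 60.7 CPM. Leukocyte markers summed to 24.1 to 39.6 CPM in the mutants in normoxia and 56.1 to 69.2 CPM in hypoxia. In wild-type cells they summed to 33.9 to 44.4 CPM. Of these 5 markers, 2 were at 1 CPM or more in every library and none was at 0 throughout, and their part in the results was not tested. Terf1, the gene of TRF1, lay between 87.4 and 105 CPM in wild-type cells, 128 and 186 CPM in the mutants in normoxia and 87.0 and 114 CPM in hypoxia, and reads of the mouse and NMR versions cannot be told apart. All 6 reference targets of the hypoxia-inducible factor HIF rose in each mutant in hypoxia, with a median log2 change of 2.63 over the mutants.

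Cells make cholesterol from acetyl-CoA through a series of steps that ends in squalene, here called the mevalonate arm, and then through the sterol arm, which closes the ring and trims the sterol. The sterol arm consumes molecular oxygen at squalene epoxidation, lanosterol demethylation, the removal of further methyl groups and a late desaturation, which are the steps of Sqle, Cyp51, Msmo1 and Sc5d. The transcription factor SREBP2, and for lipids more broadly SREBP1, is held in the endoplasmic reticulum by SCAP and the INSIG proteins while sterols are plentiful and travels to the Golgi for cleavage when they run low. The nuclear receptor LXR answers to oxysterols and drives sterol export through ABCA1. The members were read in 5 groups: 8 enzymes of the mevalonate arm, 4 oxygen-using enzymes, 7 other enzymes of the sterol arm, 6 regulators and 3 transport genes.

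The 19 enzymes stood in the same order of TRF1 versions at both oxygen levels. Measured as the median over the 19 enzymes of the log2 deviation from each gene's mean over all libraries, the TIN libraries lay at 0.39 and 0.46 in normoxia and at 0.42 and 0.55 in hypoxia. The double-mutant libraries lay at -0.57 and -0.59 in normoxia and at -0.68 and -0.59 in hypoxia. GLAD libraries lay between them, at 0.02 and -0.02 in normoxia and at -0.39 and -0.35 in hypoxia, and the wild-type libraries were at 0.53 and 0.64. The 2 libraries of a group lay closer together than the GLAD, TIN and double groups did, and the widest shift between the oxygen levels was in GLAD, as a description of these libraries. Of the 19 enzymes, 16 had their lowest group mean in the double mutant, 12 of them in hypoxia and 4 in normoxia. Group means rose in the order double, GLAD, TIN for 16 enzymes in normoxia and 15 in hypoxia. In bulk RNA, fewer cells expressing a gene and less RNA per cell cannot be told apart.

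**Figure D1:**
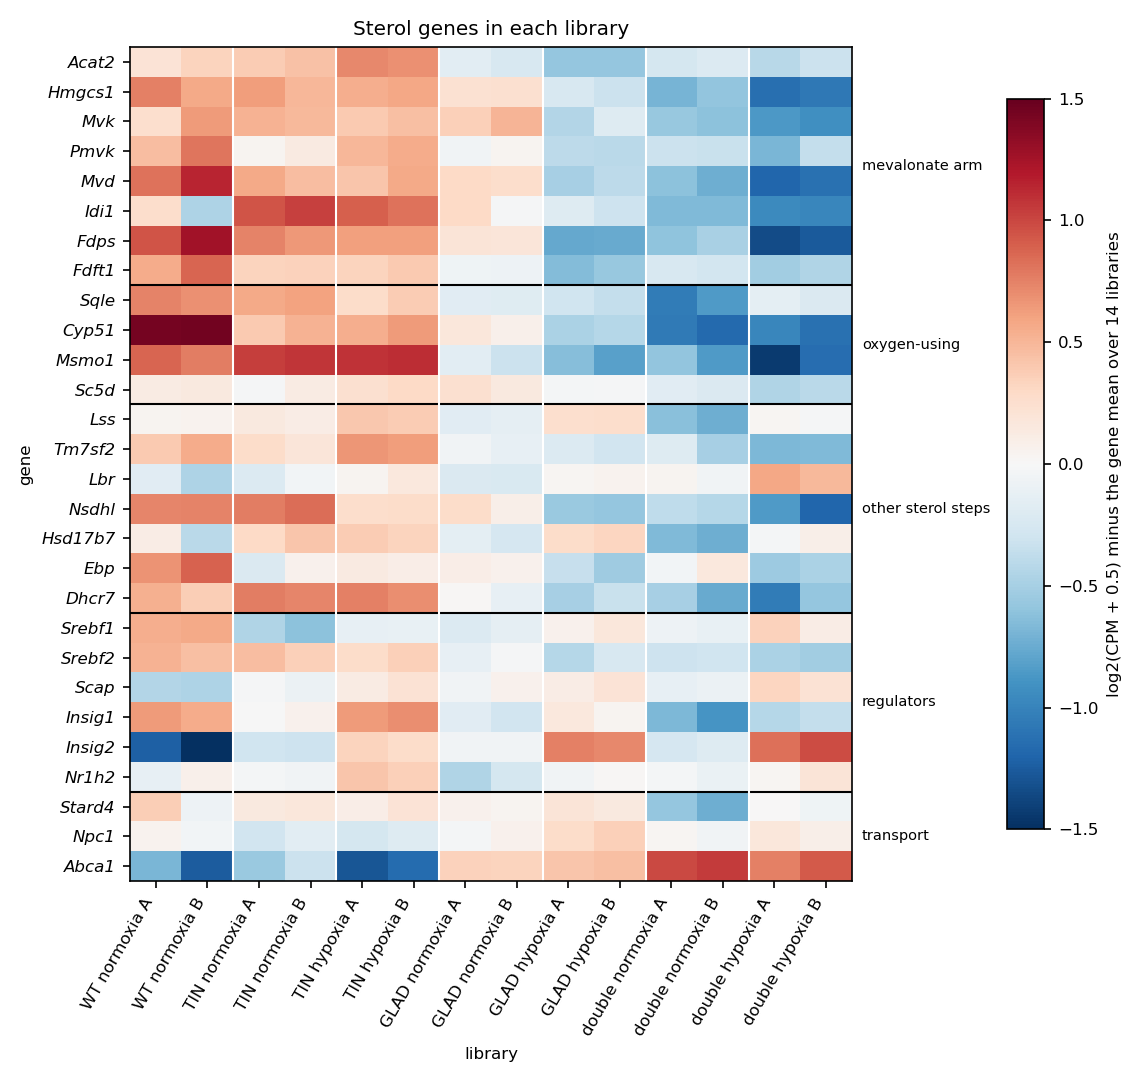
Colours show, for each of the 28 genes (rows) in each of the 14 libraries (columns), the log2(CPM + 0.5) minus that gene's mean over the libraries, with colours capped at 1.5 in either direction; black lines part the gene groups. Most enzyme rows are red in the wild-type and TIN libraries and blue in the double mutant, while Abca1 shows the opposite order.

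Promoters of 5 members are shown because these genes carry the contrasts below: Insig2 had the largest average rise in hypoxia and Nsdhl, beside Fdps, the largest average fall, Msmo1 and Abca1 differed strongly between mutants in opposite directions, and Hmgcs1, chosen after its motifs were seen, was the single member with the searched SREBP site. Each runs 5′ to 3′ on the gene's strand from 250 bases before to 50 bases after an annotated start (RefSeq, build GRCm38.p6), with matches to the searched motifs in capitals. The motifs were the SREBP site core TCACNCCAC, the NF-Y box CCAAT and the HIF site core ACGTG, each on both strands.
Hmgcs1 promoter, chr13:119690101-119690400, plus strand: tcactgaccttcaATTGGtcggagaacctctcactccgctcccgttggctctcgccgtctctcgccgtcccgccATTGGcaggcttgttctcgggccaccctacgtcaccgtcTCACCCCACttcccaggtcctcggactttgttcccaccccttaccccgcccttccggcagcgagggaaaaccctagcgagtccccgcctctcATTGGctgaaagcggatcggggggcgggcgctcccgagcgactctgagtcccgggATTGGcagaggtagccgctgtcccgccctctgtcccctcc
Nsdhl promoter, chrX:72918271-72918570, plus strand: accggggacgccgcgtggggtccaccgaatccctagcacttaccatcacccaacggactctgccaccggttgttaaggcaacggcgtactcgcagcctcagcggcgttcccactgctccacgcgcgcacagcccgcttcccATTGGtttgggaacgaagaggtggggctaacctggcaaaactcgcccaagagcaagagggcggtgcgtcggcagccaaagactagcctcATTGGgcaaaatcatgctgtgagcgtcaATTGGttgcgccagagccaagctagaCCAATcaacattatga
Msmo1 promoter, chr8:64733529-64733828, minus strand: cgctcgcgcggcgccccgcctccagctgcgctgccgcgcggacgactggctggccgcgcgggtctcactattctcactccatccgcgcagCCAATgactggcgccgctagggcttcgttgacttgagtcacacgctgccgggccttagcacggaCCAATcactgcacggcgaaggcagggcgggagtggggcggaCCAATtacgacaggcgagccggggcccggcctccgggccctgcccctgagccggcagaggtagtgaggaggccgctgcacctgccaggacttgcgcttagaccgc
Insig2 promoter, chr1:121332540-121332839, minus strand: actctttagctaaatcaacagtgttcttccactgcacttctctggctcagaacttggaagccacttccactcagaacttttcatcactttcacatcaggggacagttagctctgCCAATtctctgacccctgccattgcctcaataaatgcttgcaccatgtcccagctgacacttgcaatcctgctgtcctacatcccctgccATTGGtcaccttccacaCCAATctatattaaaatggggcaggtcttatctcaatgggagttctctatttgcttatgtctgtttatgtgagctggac
Abca1 promoter, chr4:53159846-53160145, minus strand: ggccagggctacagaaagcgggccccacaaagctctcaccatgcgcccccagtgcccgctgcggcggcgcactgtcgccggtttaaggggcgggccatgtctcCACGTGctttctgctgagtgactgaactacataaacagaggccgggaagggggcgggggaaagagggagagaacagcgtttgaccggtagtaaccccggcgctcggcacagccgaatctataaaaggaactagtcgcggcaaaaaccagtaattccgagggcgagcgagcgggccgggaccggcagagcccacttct
Insig2 has 3 such starts in the table, and the one shown is the single one with a match. The capitals mark 4 NF-Y boxes and the SREBP core in Hmgcs1, the latter beginning 137 bases before the start. Nsdhl has 4 NF-Y boxes and Msmo1 and Insig2 have 3 each, and the capitals in Abca1 are a palindrome that reads as the HIF core on both strands. Of the 28 members 23 had a promoter in the table, and Sqle, Fdft1, Fdps, Npc1 and Stard4 did not. An NF-Y box was in at least 1 promoter of 19 of the 23 members (82.6%) against 41.1% of all 27025 genes in the table. The HIF core was in 6 (26.1%) against 21.8%, and the SREBP core in 1 (4.3%) against 1.4%. Promoter by promoter, the shares over all 32851 were 37.4%, 19.6% and 1.2%, against 64.5%, 22.6% and 3.2% of the members' 31. A match is a description of the letters and not a site shown to be bound.

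Most mevalonate-arm genes fell in hypoxia in GLAD cells and in double-mutant cells. In TIN cells none of them was called lower, though Mvk, Mvd and Fdps were once length and GC trends were removed. Changes are differences of log2(CPM + 0.5) with their standard error, from a limma model over all 16157 genes that passed the filter on low values, which all 28 members passed, and a gene was called at a Benjamini-Hochberg adjusted p under 0.05. Averaged over the 3 mutants, 11 members were called higher and 13 lower in hypoxia, where 30.6% and 37.0% of all genes were called higher and lower. Among the 8 mevalonate-arm enzymes 0 were called higher and 6 lower, at a median of -0.30 (-0.04 over all genes). In GLAD cells 8 members were higher and 14 lower (22.1% and 26.0% of all genes), and 7 of the 8 mevalonate-arm enzymes were lower at a median of -0.53. In TIN cells 11 were higher and 3 lower (25.6% and 28.3%), with 2 mevalonate-arm enzymes higher, 0 lower and a median of -0.01. In the double mutant 9 were higher and 11 lower (25.8% and 30.2%), with 5 mevalonate-arm enzymes lower at a median of -0.30. Without GLAD normoxia library A or B, 4 members instead of 8 were called higher in GLAD, and without double normoxia library A or double hypoxia library A, 6 instead of 11 were called lower in the double mutant. Of the 5 mevalonate-arm calls in the double mutant 3 were kept when any 1 of the 4 double-mutant libraries was left out, those of Mvk and Fdft1 being lost.

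Fdps makes farnesyl diphosphate, the branch point to sterols, ubiquinone and prenyl groups. Its gene lies at chr3:89093588-89101959 (GRCm38, minus strand), and its level fell from 106 and 105 CPM in GLAD normoxia libraries to 54.3 and 54.7 CPM in hypoxia. In the double mutant it fell from 60.7 and 65.7 to 36.1 and 38.3 CPM, while TIN libraries had 155 and 146 CPM in normoxia and 142 and 142 CPM in hypoxia. The oxygen levels did not overlap in GLAD or double-mutant cells, and in TIN the hypoxia libraries lay just below those in normoxia. The change was -0.95 ± 0.09 in GLAD (adjusted p = 1.1e-07), -0.76 ± 0.09 in the double mutant (1.0e-06) and -0.09 in TIN, with a 95% confidence interval of -0.27 to 0.10. The exons of Fdps share 26.7% of their bases with the gene model Gm43738 on the same strand, so its reads could be split between them.

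Hmgcs1, whose product condenses acetoacetyl-CoA with acetyl-CoA, had 123 and 124 CPM in GLAD normoxia and 89.1 and 84.1 CPM in hypoxia. It had 65.0 and 69.8 CPM in double-mutant normoxia against 47.7 and 50 CPM in hypoxia, and 163 and 149 against 154 and 158 CPM in TIN cells. Hypoxia libraries were lower than both normoxia libraries in GLAD and the double mutant and overlapped them in TIN. Its change was -0.51 ± 0.08 in GLAD (adjusted p = 3.5e-05), -0.46 ± 0.08 in the double mutant (7.2e-05) and 0.00 in TIN (95% interval -0.16 to 0.17). Mvd, the decarboxylase that yields isopentenyl diphosphate, changed by -0.73 ± 0.12 in GLAD (4.9e-05) and -0.48 ± 0.12 in the double mutant (1.8e-03). Mvk, mevalonate kinase, changed by -0.75 ± 0.11 in GLAD (2.5e-05), from 59.9 and 66.7 to 34.3 and 40.7 CPM. The same kinase was at -0.30 in the double mutant (adjusted p = 0.031), and was at -0.33 to -0.27 and not called when any 1 of the 4 double-mutant libraries was left out. Fdft1, squalene synthase, was at -0.54 in GLAD and at -0.23 in the double mutant (0.036), where it was at -0.26 to -0.19 and not called when any 1 of the 4 double-mutant libraries was left out. Its exons share 18.3% of their bases with Ctsb on the opposite strand, and the strand setting of the counting is not given in the sources used here.

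In TIN cells the mevalonate-arm genes that were called rose. Pmvk, phosphomevalonate kinase, went from 31.8 and 34.0 to 43.8 and 45.6 CPM (0.44 ± 0.12, adjusted p = 4.6e-03), whereas it was lower in GLAD hypoxia, at -0.39. Acat2, the cytosolic thiolase that starts the arm, went from 93.3 and 96.8 to 118 and 115 CPM in TIN (0.29 ± 0.08, 3.3e-03) and from 63.6 and 60.3 to 47.5 and 47.6 CPM in GLAD (-0.38 ± 0.08). Idi1, the isomerase, was the arm's gene without a call in any single mutant, at -0.38, -0.12 and -0.30 in GLAD, TIN and the double mutant. Over 16117 genes the TIN hypoxia change correlated with transcript length (Spearman -0.21) and GC content (0.22), against 0.09 and -0.03 in GLAD and 0.05 and 0.01 in the double mutant. Once the dependence of each library's values on length and GC was taken out, 7 members were called lower in TIN hypoxia instead of 3. Those 7 included Mvk at -0.36, Mvd at -0.30 and Fdps at -0.23. Acat2 and Pmvk then stood at 0.13 and 0.17 and were not called, so the direction of the TIN mevalonate arm in hypoxia depended on this choice.

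**Figure D2:**
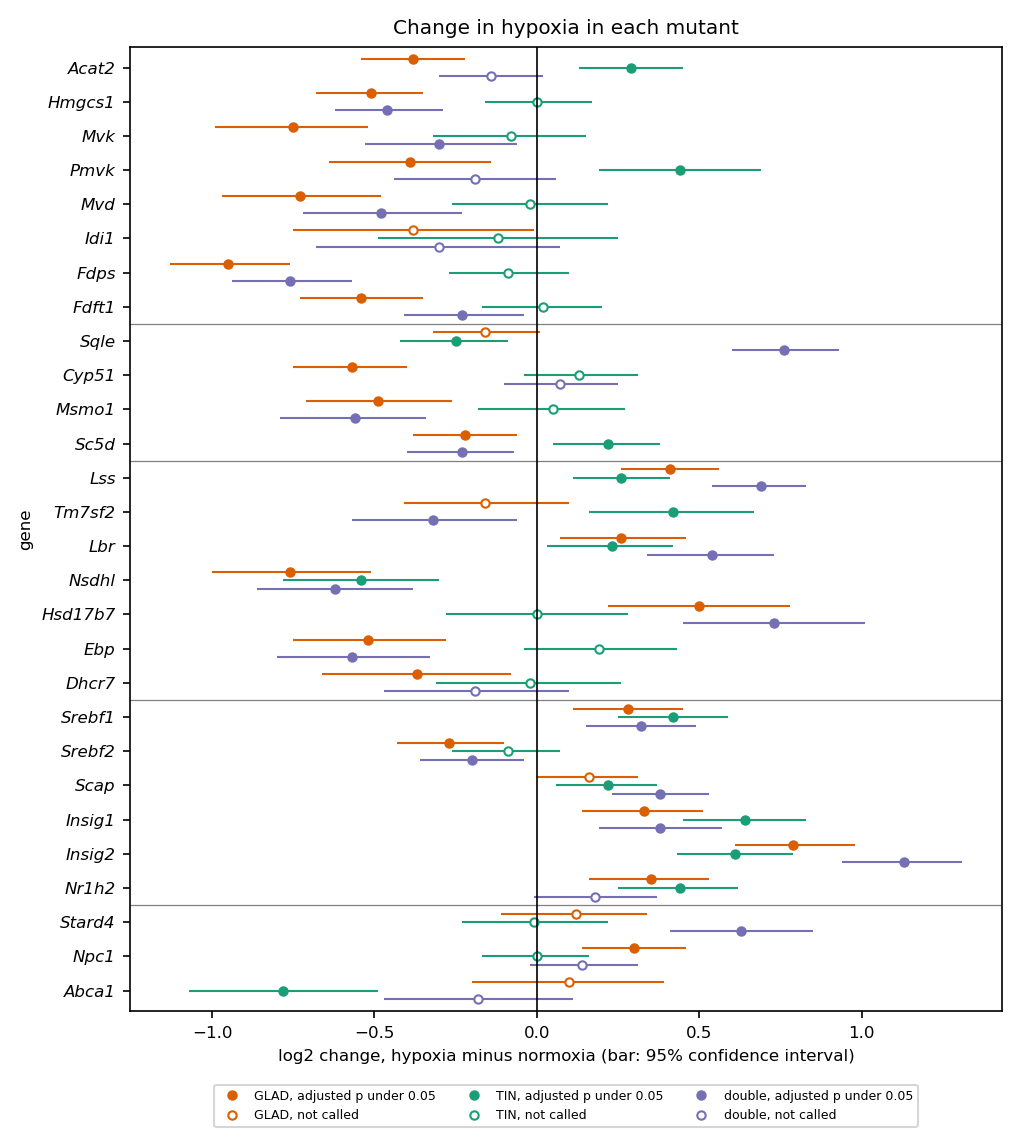
The horizontal axis is the log2 change from normoxia to hypoxia of each gene (rows) in each mutant, with bars for the 95% confidence interval of the limma fit; filled points passed adjusted p under 0.05, and grey lines part the gene groups. GLAD and double-mutant points of the mevalonate arm lie left of 0, TIN points lie near or right of it, and Insig2 lies right of 0 in all 3 mutants.

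The 4 oxygen-using enzymes did not move as a block. Averaged over the mutants 1 of 4 was called higher and 2 lower, at a median of -0.10; the counts were 0 and 3 in GLAD (median -0.35), 1 and 1 in TIN (0.09) and 1 and 2 in the double mutant (-0.08). Over all genes 30.6% were called higher and 37.0% lower on average. The shares were 22.1% and 26.0% in GLAD, 25.6% and 28.3% in TIN, and 25.8% and 30.2% in the double mutant. The TIN counts were near those shares. The average calls of Sqle (0.12, adjusted p = 0.029) and Cyp51 (-0.12, 0.031) were not stable. That of Sqle was lost without TMM scaling (0.09), and at 0.06 to 0.11 without GLAD normoxia library A or B, GLAD hypoxia library A, TIN normoxia library A, TIN hypoxia library B, double normoxia library A or double hypoxia library A. That of Cyp51 was lost with median-ratio scaling (-0.10), and at -0.11 to -0.10 without TIN normoxia library B, TIN hypoxia library A or double hypoxia library B. The 2 calls in TIN, Sqle lower (-0.25) and Sc5d higher (0.22), were both lost without TIN hypoxia library A, at -0.20 and 0.24. Sqle in TIN was also lost without TIN normoxia library B (-0.24), and Sc5d without hypoxia library B (0.19) or normoxia library A (0.14) of TIN. The lower call of Sc5d in the double mutant (-0.23) was lost without double normoxia library A (-0.23) or double hypoxia library A (-0.21). Sqle, squalene epoxidase (chr15:59315077-59331192, plus strand), set the double mutant apart. Its level rose there from 39.9 and 45.7 CPM in normoxia to 74.8 and 71.2 CPM in hypoxia. In GLAD it had 73.8 and 73.1 against 67.0 and 64.7 CPM, and in TIN 123 and 126 against 100 and 108 CPM. The double-mutant rise was 0.76 ± 0.08 (adjusted p = 1.9e-07), a 1.70-fold increase, whereas TIN changed by -0.25 ± 0.08 (0.011) and GLAD by -0.16 (95% interval -0.32 to 0.01). The TIN call was not made without TIN normoxia library B (-0.24, adjusted p = 0.071) or without TIN hypoxia library A (-0.20, 0.12). The Sqle level of the double mutant in hypoxia was close to that of GLAD in normoxia and below that of either TIN group.

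Cyp51, lanosterol demethylase (chr5:4081145-4104746, minus strand), fell in GLAD from 74.1 and 69.1 to 47.2 and 48.7 CPM, by 0.57 ± 0.08 on the log2 scale (adjusted p = 1.8e-05). In the double mutant it stood at 31.1 and 28.9 CPM in normoxia and 33.1 and 30.0 CPM in hypoxia, groups that overlapped at a change of 0.07 (95% interval -0.10 to 0.25). Msmo1, which oxidises the methyl groups left after that step, fell in GLAD from 43.4 and 38.5 to 30.9 and 27.3 CPM (-0.49 ± 0.11, 1.2e-03). It fell in the double mutant from 31.8 and 26.7 to 17.6 and 21.7 CPM (-0.56 ± 0.11, 2.3e-04), and in TIN cells it had 99.5 and 102 against 103 and 105 CPM. Sc5d, the sterol desaturase, was at -0.22 in GLAD, 0.22 in TIN and -0.23 in the double mutant, each of which lost its call under at least 1 alternative. Thus 1 of the 4 oxygen-using genes rose clearly in one mutant, while Msmo1 fell in 2 and Cyp51 in 1.

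**Figure D3:**
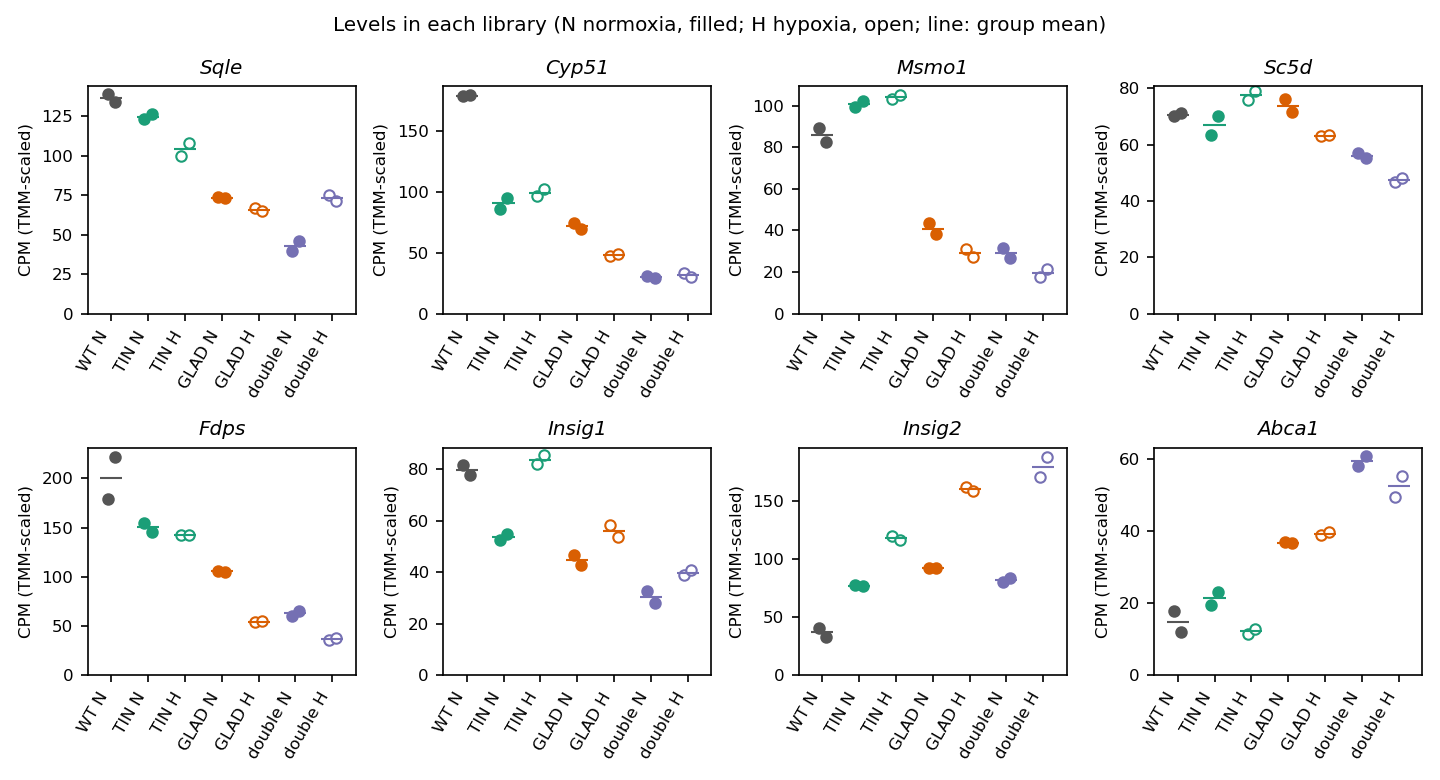
Each panel gives the TMM-scaled CPM of 1 gene in every library (points; filled for normoxia, open for hypoxia) with the mean of each group of 2 (line), on axes that start at 0. Sqle rises in hypoxia in the double mutant, Cyp51 is highest in wild-type cells, Insig2 rises in hypoxia in each mutant, and Abca1 is highest in the double mutant.

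Of the other 7 sterol-arm enzymes 3 were called higher and 3 lower in hypoxia averaged over the mutants, at a median of -0.02, where 30.6% and 37.0% of all genes were called, so the counts were near those shares. Nsdhl, a dehydrogenase that helps remove methyl groups (chrX:72918557-72958514, plus strand), fell in all 3 mutants. Its level went from 26.3 and 23.0 to 14.5 and 14.2 CPM in GLAD, from 37.2 and 38.9 to 26.0 and 26.1 CPM in TIN, and from 16.5 and 15.9 to 11.7 and 9.18 CPM in the double mutant. Normoxia and hypoxia libraries did not overlap within any mutant, and the average change of -0.64 ± 0.07 (adjusted p = 1.2e-07) lay beside that of Fdps (-0.60) as the lowest of the 28 members. With length and GC trends removed Fdps was at -0.65 and Nsdhl at -0.62. Lss, the cyclase that closes the ring to lanosterol, rose in all 3 mutants. It went from 78.5 and 80.5 to 105 and 106 CPM in GLAD, from 97.9 and 95.3 to 117 and 115 CPM in TIN, and from 57.1 and 53.0 to 90.5 and 87.3 CPM in the double mutant. Its average change was 0.45 ± 0.04 (1.6e-08), so the enzyme after Sqle rose while Fdps, upstream of it, fell.

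Hsd17b7, the ketone reductase that works beside Nsdhl, moved opposite to it in 2 mutants, rising in GLAD (0.50 ± 0.13, adjusted p = 5.1e-03) and in the double mutant (0.73 ± 0.13, 1.5e-04), and was at 0.00 in TIN. Without GLAD normoxia library B the GLAD change of Hsd17b7 was 0.40 and not called (0.083). Lbr, a sterol reductase of the inner nuclear membrane that also tethers chromatin, rose in the double mutant from 91.8 and 86.1 to 134 and 125 CPM (0.54 ± 0.09, 7.4e-05). It was at 0.26 in GLAD and 0.23 in TIN, calls that were not made under every alternative. Tm7sf2, another reductase for the same step, fell there, at -0.32, and was higher in TIN, at 0.42. These Tm7sf2 calls were lost without double normoxia library A (-0.19), double hypoxia library A (-0.31) or B (-0.33), and without TIN normoxia library B (0.37) or TIN hypoxia library A (0.40), respectively. The exons of Tm7sf2 share 12.1% of their bases with Vps51 on the same strand. Ebp, the sterol isomerase, fell in GLAD (-0.52 ± 0.11, 9.2e-04) and in the double mutant (-0.57 ± 0.11, 3.0e-04). Dhcr7, which completes cholesterol, was at -0.37 in GLAD (0.032), a call not made under every alternative.

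Most regulators rose in hypoxia while most enzymes called on average fell, though not within TIN. Averaged over the mutants 5 of the 6 regulators were called higher and 1 lower, at a median of 0.33, against 4 higher and 11 lower of the 19 enzymes, at a median of -0.19. Within GLAD the regulators had 4 higher and 1 lower, within TIN 5 and 0, and within the double mutant 4 and 1. The 19 enzymes had 3 higher and 13 lower in GLAD and 4 and 10 in the double mutant. In TIN they had 6 higher and 2 lower, at a median of 0.02. With length and GC trends removed, Mvk, Mvd and Fdps were also called lower in TIN. All genes were called higher and lower in shares of 30.6% and 37.0% on average, 22.1% and 26.0% in GLAD, 25.6% and 28.3% in TIN, and 25.8% and 30.2% in the double mutant. Without GLAD normoxia library A or B, 2 of the 4 higher calls in GLAD were kept. Insig2 (chr1:121304353-121332589, minus strand), whose product retains SCAP, had the highest average change of the members. Its level rose from 91.9 and 92.0 to 162 and 158 CPM in GLAD, from 77.3 and 76.7 to 120 and 116 CPM in TIN, and from 80 and 83.7 to 170 and 188 CPM in the double mutant. All 6 hypoxia libraries lay above all 6 normoxia libraries of the mutants. The average change was 0.84 ± 0.05 (adjusted p = 4.8e-11), a 1.79-fold increase, with 0.79 in GLAD, 0.61 in TIN and 1.13 in the double mutant.

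Insig1, the sister protein and itself a target of SREBP, rose in TIN from 52.4 and 55.0 to 81.9 and 85.6 CPM (0.64 ± 0.09, adjusted p = 1.1e-05). In the double mutant it went from 32.8 and 28.2 to 38.8 and 40.8 CPM (0.38 ± 0.09, 1.4e-03). In GLAD it rose from 46.7 and 42.8 to 58.5 and 53.9 CPM (0.33 ± 0.09, 6.2e-03), but lost its call when GLAD normoxia library B (0.21, 0.15) or GLAD hypoxia library A (0.23, 0.12) was left out. Srebf1, the gene of SREBP1, rose by 0.34 ± 0.05 on average (4.7e-06), with 0.28, 0.42 and 0.32 in GLAD, TIN and the double mutant. The GLAD and double-mutant calls of Srebf1 were not made without GLAD normoxia library A (0.20, 0.15), GLAD normoxia library B (0.27, 0.063), GLAD hypoxia library B (0.22, 0.10) or double hypoxia library A (0.20, 0.072). Srebf2, the gene of SREBP2, was the regulator that fell, by 0.19 ± 0.04 on average (1.2e-03). It went from 257 and 278 to 208 and 238 CPM in GLAD and from 226 and 229 to 202 and 195 CPM in the double mutant. The Srebf2 call was lost in GLAD without GLAD normoxia library B (-0.26, 0.056) or GLAD hypoxia library A (-0.21, 0.082), and in the double mutant, at -0.23 to -0.17, when any 1 of its 4 libraries was left out. Scap, the escort of SREBP, was higher on average by 0.25 ± 0.04 (3.7e-05), and Nr1h2, one of the LXR genes, by 0.32 ± 0.05 (2.6e-05). In GLAD Nr1h2 was at 0.35, but not called without GLAD normoxia library A (0.21, 0.13), and in TIN it was at 0.44, or 0.16 with length and GC trends removed. Scap was at 0.22 in TIN and not called without TIN normoxia library B (0.19, 0.12) or TIN hypoxia library B (0.17, 0.16).

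The 3 transport genes went separate ways. Stard4, a cytosolic sterol carrier, rose in the double mutant from 52.3 and 47.2 to 79.2 and 75.1 CPM (0.63 ± 0.11, adjusted p = 6.4e-05). It had 82.1 and 80.9 against 90.0 and 86.8 CPM in GLAD and 86.9 and 88.8 against 84.1 and 90.7 CPM in TIN. In hypoxia the double mutant thus approached the levels of the other mutants. Npc1, which releases sterol from lysosomes, was higher in GLAD by 0.30 ± 0.08 (3.7e-03), though not without GLAD normoxia library A (0.20, 0.13). Abca1, the exporter (chr4:53030787-53159895, minus strand), fell in TIN from 19.6 and 23.1 to 11.6 and 12.8 CPM (-0.78 ± 0.14, 1.2e-04), or by -0.48 with length and GC trends removed. It had 37.0 and 36.6 against 38.9 and 39.8 CPM in GLAD (95% interval of the change -0.20 to 0.39) and 58.0 and 60.8 against 49.5 and 55.4 CPM in the double mutant (-0.47 to 0.11).

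Whether mutants differed in their hypoxia change was tested directly as the difference of the changes. These 3 tests share libraries pairwise and are given side by side. TIN minus GLAD was called positive for 12 members and negative for 2 (16.4% and 17.5% of all genes), and the 12 were all enzymes, 7 of them of the mevalonate arm, 3 oxygen-using and 2 other. They were led by Fdps at 0.86 ± 0.13 (adjusted p = 8.2e-05), Pmvk at 0.82 ± 0.17 (1.2e-03), Ebp at 0.71 ± 0.16 (2.4e-03), Cyp51 at 0.71 ± 0.12 (2.4e-04) and Mvd at 0.71 ± 0.16 (3.0e-03). With length and GC trends removed all 5 were still called, with Cyp51 at 0.84, Fdps at 0.74, Pmvk at 0.52, Ebp at 0.49 and Mvd at 0.39. The 2 negative calls were Abca1 at -0.88 ± 0.20 (2.4e-03) and Npc1 at -0.30 ± 0.11 (0.039). The same removal brought Abca1 to -0.41 (0.050) and Npc1 to 0.02. Npc1 was at -0.34 to -0.22 and not called without any 1 library of GLAD normoxia, GLAD hypoxia, TIN hypoxia or double normoxia, or without TIN normoxia library B. Among the 12 positive calls, those of Msmo1 and Tm7sf2 were not made under every alternative. No regulator was called in this test. The enzymes had a median difference of 0.53, against 0.03 over all genes.

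Double minus GLAD was called positive for 3 members and negative for 0 (6.90% and 7.67% of all genes). The 3 were Sqle at 0.92 ± 0.11 (adjusted p = 2.6e-05), Cyp51 at 0.65 ± 0.12 (1.1e-03) and Stard4 at 0.51 ± 0.15 (0.028). Stard4 was at 0.44 to 0.56 and not called without any 1 GLAD library, double normoxia library B or double hypoxia library A. This count rose to 8 without wild-type library A, without wild-type library B or without both. Double minus TIN was called positive for 6 members and negative for 9 (21.4% and 21.4% of all genes). The 9 were enzymes, led by Ebp at -0.76 ± 0.16 (9.7e-04; -0.50 with length and GC trends removed), Tm7sf2 at -0.74 ± 0.17 (2.4e-03), Fdps at -0.67 ± 0.13 (4.1e-04), Pmvk at -0.63 ± 0.17 (5.8e-03; -0.36 with length and GC trends removed), and Msmo1 at -0.61 ± 0.15 (3.9e-03). The positive calls were led by Sqle at 1.02 ± 0.11 (1.9e-06), Hsd17b7 at 0.73 ± 0.19 (4.9e-03), Stard4 at 0.64 ± 0.15 (2.5e-03), Abca1 at 0.60 ± 0.20 (0.019) and Insig2 at 0.52 ± 0.12 (2.6e-03). Stard4 was at 0.38 and Abca1 at 0.22, the latter not called, with length and GC trends removed. Lss, another positive call, was then at 0.16 and not called. Of the 9 negative calls, Acat2 was then at -0.21 and Mvd at -0.19, neither called. Abca1 was at 0.49 to 0.56 and not called without TIN normoxia library B, TIN hypoxia library A, double normoxia library A or double hypoxia library B. The larger double-mutant rise of Insig2 was therefore called against TIN, while against GLAD it was 0.33 (0.079) and not called. With length and GC trends removed, the Insig2 difference from GLAD was 0.38 and was called (0.020). All 6 HIF reference genes rose less in the double mutant than in GLAD, at a median difference of -0.80. Their levels in hypoxia were not all lower there. Vegfa, Slc2a1, Pdk1 and Ldha were higher in double-mutant than in GLAD hypoxia, and Car9 and Bnip3 were lower. Slc2a1, for instance, had 189 and 180 CPM in double-mutant normoxia and 921 and 846 CPM in hypoxia. In GLAD it had 84.8 and 90.8 CPM, then 580 and 620 CPM. The part of the HIF reference genes in these member differences was not tested.

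In normoxia each mutant was set against wild-type NMR TRF1, and the 3 comparisons share the 2 wild-type libraries. The double mutant had the lower enzyme levels: 22 members were called lower and 4 higher (28.6% and 28.2% of all genes), and 18 of the 19 enzymes were lower, at a median of -0.98. GLAD had 18 members lower and 3 higher (28.3% and 26.9%), with 14 enzymes lower and 0 higher at a median of -0.55. TIN had 9 lower and 5 higher (28.8% and 31.4%), with 6 enzymes lower and 2 higher at a median of -0.08. Without wild-type library A, 5 members were higher in GLAD and 9 in TIN. In GLAD the lower calls of Lss, Dhcr7 and Nr1h2 were not made under every alternative. The same held for the lower calls of Npc1 in TIN and of Idi1 and Hsd17b7 in the double mutant. Medians over all genes were -0.01, -0.01 and 0.03 in the order double, GLAD, TIN. The oxygen-using group had the lowest median in the double mutant, at -1.60, with 4 of 4 lower.

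Cyp51 had 178 and 179 CPM in wild-type cells, 74.1 and 69.1 in GLAD, 86.0 and 94.7 in TIN and 31.1 and 28.9 in the double mutant. Every mutant lay below wild type without overlap, and the differences were -1.31 ± 0.08 in GLAD (adjusted p = 4.1e-10), -0.98 ± 0.08 in TIN (9.9e-09) and -2.55 ± 0.08 in the double mutant (2.3e-14). Sqle had 139 and 134 CPM in wild-type cells, and its difference was -0.89 ± 0.08 in GLAD (4.0e-08), -1.66 ± 0.08 in the double mutant (4.4e-12) and -0.14 in TIN (95% interval -0.30 to 0.03). Msmo1, at 89.1 and 82.6 CPM in wild-type cells, was lower by -1.06 ± 0.11 in GLAD and -1.54 ± 0.11 in the double mutant and stood at 0.23 in TIN. Fdps had 179 and 222 CPM in wild-type cells and differences of -0.92 ± 0.09, -0.40 ± 0.09 and -1.65 ± 0.09 in GLAD, TIN and the double mutant. Mvd differed by -1.65 ± 0.12 in the double mutant (1.1e-09). Lbr was the enzyme called higher there, at 0.31, but not without double normoxia library A (0.30, 0.054) or wild-type library B (0.17, 0.098). In TIN the enzymes called higher were Idi1, at 1.08 ± 0.18 (3.9e-05), and Hsd17b7, at 0.51 ± 0.13. The 2 wild-type libraries of Idi1 were 15.0 and 8.87 CPM and those of Hsd17b7 were 23.7 and 16.4 CPM, and without wild-type library B Hsd17b7 was at 0.24 and not called (0.073).

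**Figure D4:**
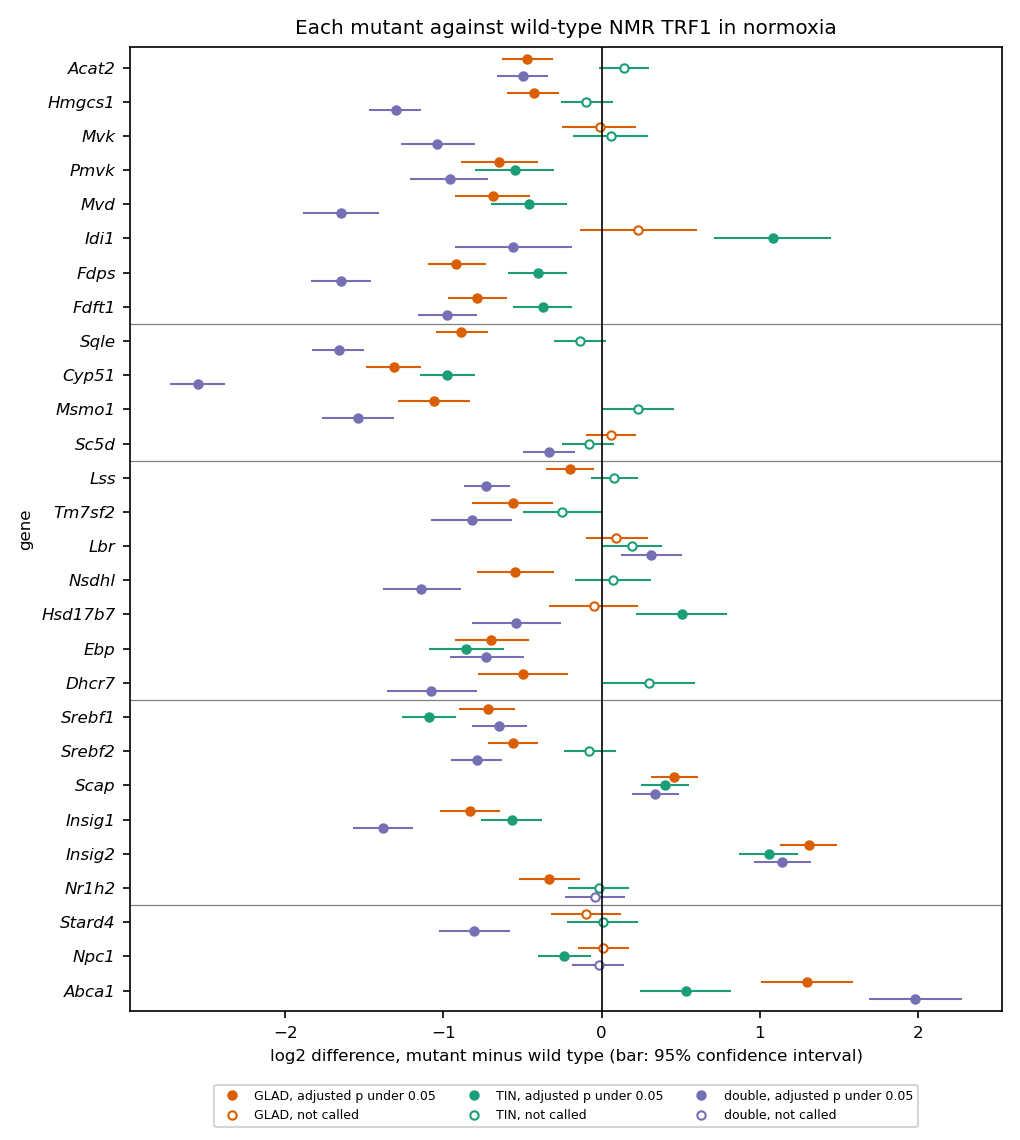
The horizontal axis is the log2 difference of each mutant from wild-type NMR TRF1 in normoxia for each gene (rows), with bars for the 95% confidence interval of the limma fit; filled points passed adjusted p under 0.05. Double-mutant points lie farthest left for most enzymes, at -2.55 for Cyp51, except for Ebp (TIN farthest left) and Lbr (double mutant at 0.31), while Insig2 and Abca1 lie right of 0 in every mutant.

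Regulators and exporters again ran against the enzymes in part. Insig2 was higher in every mutant than in wild-type cells, which had 40.7 and 33.2 CPM, by 1.31 ± 0.09 in GLAD (adjusted p = 7.4e-10), 1.06 ± 0.09 in TIN (6.1e-09) and 1.14 ± 0.09 in the double mutant (3.2e-09). Abca1, at 17.9 and 11.9 CPM in wild-type cells, was higher by 1.30 ± 0.14 in GLAD (4.1e-07), 0.53 ± 0.14 in TIN (3.0e-03) and 1.98 ± 0.14 in the double mutant (1.1e-09), where it was 3.96-fold. The TIN difference of Abca1 was not called without TIN normoxia library B (0.41, 0.052) or wild-type library B (0.25, 0.063). Scap was higher in all 3 mutants, by 0.34 to 0.46. Insig1 had 81.8 and 77.7 CPM in wild-type cells and differed by -0.83 ± 0.09 in GLAD, -0.57 ± 0.09 in TIN and -1.38 ± 0.09 in the double mutant (4.2e-10). Srebf1 was lower in all 3, most in TIN at -1.09 ± 0.08 (1.9e-09). Srebf2 had 403 and 385 CPM in wild-type cells and was lower in GLAD (-0.56 ± 0.08) and the double mutant (-0.79 ± 0.08), while TIN had 387 and 361 CPM. Stard4 was lower in the double mutant alone among the calls, at -0.81 ± 0.11 (4.6e-06), and a test against GLAD gave -0.71 ± 0.11 (4.4e-05).

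Compared with each other in normoxia, TIN stood above GLAD for 16 members and below it for 4 (27.7% and 24.1% of all genes). Among the 16, the calls of Cyp51, Lss, Tm7sf2, Hsd17b7, Insig1 and Nr1h2 were not made under every alternative. The 16 held 13 of the 19 enzymes, led by Msmo1 at 1.29 ± 0.11 (adjusted p = 1.4e-08), Idi1 at 0.85 ± 0.18 (5.8e-04), Dhcr7 at 0.80 ± 0.14 (8.5e-05), Sqle at 0.75 ± 0.08 (2.6e-07) and Nsdhl at 0.62 ± 0.12 (2.2e-04). The 4 lower were Abca1 at -0.77 ± 0.14 (1.4e-04), Srebf1 at -0.37, and Insig2 and Npc1 at -0.25 each, of which 2 were called without TIN normoxia library A. Double minus GLAD was called lower for 17 members and higher for 2 (17.2% and 18.5%), among them 14 enzymes lower, led by Cyp51 at -1.24 ± 0.08 (1.7e-09), Mvk at -1.02 ± 0.11 (1.1e-06) and Mvd at -0.96 ± 0.12 (3.3e-06). Among the 17, the calls of Pmvk, Msmo1, Hsd17b7, Dhcr7 and Srebf2 were not made under every alternative. The 2 higher were Abca1 at 0.68 ± 0.14 (8.1e-04) and Nr1h2 at 0.29, of which 1 was called without GLAD normoxia library A or without double normoxia library A. Double minus TIN was called lower for 20 members and higher for 3 (25.8% and 22.9%), with 17 of 19 enzymes lower at a median of -1.09. It was led by Msmo1 at -1.77 ± 0.11 (1.5e-10), Idi1 at -1.64 ± 0.18 (4.2e-07), Cyp51 at -1.57 ± 0.08 (1.6e-11) and Sqle at -1.53 ± 0.08 (1.2e-11). Abca1 was higher by 1.46 ± 0.14 (7.9e-08), with the order of the mutants opposite to that of most enzymes. Srebf1 had that opposite order too. It stood at 125 and 122 CPM in the double mutant, 114 and 120 CPM in GLAD and 95.7 and 85.9 CPM in TIN. In double minus TIN, the lower calls of Pmvk and Sc5d and the higher call of Npc1 were not made under every alternative. The normoxia libraries of these comparisons also enter the hypoxia changes, so a low normoxia level and a large rise in hypoxia, as for Sqle in the double mutant, are not independent values.

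Across the 14 libraries the Spearman correlation with the median enzyme deviation was -0.91 for Abca1 and -0.61 for Insig2. It was 0.88 for Srebf2, 0.84 for Insig1, 0.53 for Stard4 and -0.07 for Srebf1. These points share library, group and scaling, and the values describe these libraries. The widest spans between group means were in Cyp51 (178 CPM in wild type and 30.0 CPM in double normoxia, a ratio of 5.94), Fdps (5.39), Msmo1 (5.29), Abca1 (4.87) and Insig2 (4.85). All 6 HIF reference genes were higher in the double mutant than in wild-type cells in normoxia, at a median log2 difference of 1.12, with Pdk1 at 1.43, Bnip3 at 1.38 and Slc2a1 at 1.17. They had 2 called higher and 1 lower in GLAD and 2 and 1 in TIN, and their part in the enzyme differences was not tested.

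Neighbouring pathways were read from lists chosen for function, and their average hypoxia counts stand against 30.6% of all genes called higher and 37.0% called lower. Of 12 genes of SREBP processing and sterol-regulated degradation, 3 were called higher and 6 lower in hypoxia on average, among them the protease gene Mbtps2 at -0.94 ± 0.07 (adjusted p = 1.5e-09), the ubiquitin ligase gene Rnf139 at -0.70 ± 0.08 and the heme-binding Pgrmc1 at 0.89 ± 0.04. Mbtps2 fell more in TIN (-1.51) than in GLAD (-0.60), with a difference of -0.91 ± 0.17 (7.5e-04). Whether the length and GC trends of the TIN hypoxia changes enter this difference was not tested. Of 13 tested genes of fatty acid synthesis, the SREBP1 side, 1 was higher and 9 were lower, at a median of -0.48. The elongase Elovl6 was at -1.58 ± 0.06 (6.4e-14), the desaturase Scd1 at -1.04 ± 0.05 (3.6e-12) and the carboxylase Acaca at -0.89 ± 0.06 (1.4e-10). In GLAD, TIN and the double mutant 8, 9 and 8 of the 13 were called lower (26.0%, 28.3% and 30.2% of all genes) and 0, 0 and 3 higher. Of 12 genes of the side branches of mevalonate 1 was higher and 6 lower, led by the ubiquinone gene Pdss2 at -0.88 ± 0.08 (1.9e-08).

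Of 8 tested genes of the LXR axis 3 were higher and 3 lower in hypoxia on average (30.6% and 37.0% of all genes), with Rxra, the partner of LXR, at -0.69 ± 0.04 (adjusted p = 1.7e-10) and the LXR targets Arl4c and Mylip at 0.54 ± 0.05 and 0.53 ± 0.05. The LXR gene Nr1h3 was higher in GLAD (1.74 ± 0.23, 5.1e-06), TIN (1.43 ± 0.23, 3.0e-05) and the double mutant (1.61 ± 0.23, 1.0e-05) than in wild-type cells in normoxia. Its levels were low, at 1.01 and 1.18 CPM in wild-type cells, near the filter of 1 CPM, and 3.50 to 5.01 CPM in these mutants. Of 18 genes of sterol storage and intracellular transport 7 were higher and 8 lower in hypoxia, shares near those of all genes, led by the lipoprotein receptor gene Vldlr at 1.83 ± 0.05 (9.3e-16). Vldlr rose less in TIN (1.13) than in GLAD (2.32), with a difference of -1.19 ± 0.13 (2.9e-06). For Vldlr, too, the part of the length and GC trends in this difference was not tested. Soat1, which esterifies cholesterol for storage, was higher than in wild-type cells in all 3 mutants in normoxia, by 1.00 ± 0.09, 1.45 ± 0.09 and 1.1 ± 0.09 in GLAD, TIN and the double mutant.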

How the data were processed

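RNA-seq libraries were made from total RNA with TruSeq reagents, per the labels' protocols. The authors deposited 1 table of CPM per Ensembl gene for the 14 libraries; STAR and HTSeq, and the builds GRCm38.p4 and mm10, are named in the submitters' processing notes without versions. Scaling to CPM removes the depth, which was estimated here from the steps of the low values. The floor of 3 reads is 0.200 to 0.252 CPM and covers counting error only. The confidence intervals come from the limma fit and, like the p-values, rest on the spread within the pairs of libraries.

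CPM were scaled by TMM (trims of 30% and 5%), filtered at 1 CPM in at least 2 libraries, and fitted as log2(CPM + 0.5) with limma 3.58.1 in R 4.3.3: 7 group means, 7 residual and 10.9 prior degrees of freedom, 13 comparisons, p-values adjusted over all 16157 genes within each. A log2 fold on this scale understates the change of low genes. The fit was checked on simulated data. Positions are from GENCODE vM21 (GRCm38), and the authors' annotation release is not given in the sources used here. Gene names matched 52403 of the identifiers. All members are named; full statistics go to the called members with the largest changes, up to 5 a direction, and companion genes to the largest called changes. The members and lists were chosen with earlier results of these data known. Some genes of the pathway are not reported here. Alternatives were other scalings, pseudocounts of 0.1 and 2 CPM, no filter, only the groups compared, the replicate letter as a block, removal of length and GC trends, each library left out, and, chosen after seeing the data, limma-voom on recovered reads and a fit without the 2 wild-type libraries. The letters A and B did not pair the libraries: over 21 pairs of groups the correlation of their deviations ran from -0.10 to 0.16 (median 0.03).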

Additional observations from a re-analysis of the deposited data

Results flagged for a closer look

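Sqle, the squalene epoxidase gene, was singled out because its hypoxia change differed between 2 mutants by more than 1 log2 unit in a direct test: the double mutant minus TIN difference was 1.02 ± 0.11 (limma, adjusted p = 1.9e-06). It was higher in both hypoxia libraries of the double mutant than in both normoxia libraries (39.9 and 45.7 CPM in normoxia, 74.8 and 71.2 CPM in hypoxia) and lower in both in TIN (123 and 126 against 100 and 108 CPM). All groups have 2 libraries, so no library could be tested for standing apart from its group.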

How the results depend on the processing

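The 235 calls on members kept their direction under every alternative but 1: Npc1, TIN minus GLAD in the hypoxia change, was 0.02 once length and GC trends were removed. This Npc1 call was lost too, in addition to the 10 calls counted below for that removal. The replicate block changed 0 of 235 calls, leaving for instance 11 members higher and 13 lower in average hypoxia. Of the 235, 6 were lost without TMM scaling, 6 with median-ratio scaling, 0 with either pseudocount, 18 without a filter, 9 with only the groups compared, 10 with the length and GC trend removed, 3 with limma-voom on recovered reads and 1 to 23 when a library was left out. The planned edgeR test on recovered reads was not run, because 1 read was not a whole number of steps.

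Counts moved by over 1.5 times as follows, and the cause was not tested. With length and GC trends removed, TIN hypoxia had 7 members lower, TIN minus GLAD in hypoxia 1 negative, double minus GLAD in hypoxia 9 positive, TIN minus wild type 10 higher and TIN minus GLAD in normoxia 2 lower. With only the groups compared, double minus GLAD in hypoxia had 8 positive and TIN minus wild type 3 higher. Median-ratio scaling and no filter each left 1 negative in TIN minus GLAD in hypoxia. Without both wild-type libraries, double minus GLAD in hypoxia had 8 positive.

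With each library left out in turn, the ranges were 4 to 9 higher in GLAD hypoxia, 6 to 12 lower in double-mutant hypoxia, 1 to 3 negative for TIN minus GLAD and 2 to 8 positive for double minus GLAD in the hypoxia change. In normoxia they were 3 to 5 higher for GLAD and 4 to 9 higher for TIN against wild type, 2 to 5 lower for TIN minus GLAD and 1 to 3 higher for double minus GLAD. The lowest group mean of any member was 6.11 CPM, in Idi1, whose standard error was 0.18 in the comparisons of 2 groups; 2 libraries a group limit every member.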
